A study of Homo sapiens with 6 samples.

Results

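The genes described here are the long noncoding RNAs (lncRNAs) that were expressed in A549, an established human non-small cell lung cancer line. They are the genes typed lncRNA in the deposited count table with a mean of at least 10 reads over the 3 input RNA libraries, leaving out the snoRNA host genes whose names start with SNHG, GAS5 and ZFAS1. 67 of the 60648 genes of the table met this rule, out of 16888 lncRNA genes, of which 14614 had no input read at all. Past the same minimum lay 7930 genes in all, 7697 of them protein-coding, and 17 lncRNAs that were left out as snoRNA hosts. They were thus chosen by their mean input count, so their input levels are given as a description. 37 of the 67 had at least 10 reads in every input library, 23 had them in 2 libraries, and 7 had them in 1 library only. Just inside the minimum, at a mean of 10 reads, stood RP5-1061H20.4, RP11-319F12.3, RP11-340I6.14 and CTD-2600O9.1. Just outside it, at 9.67, stood LINC01962, LUCAT1, CYTOR and CRNDE.

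LncRNAs are transcripts without a long conserved reading frame. Many stay in the nucleus, where MALAT1 is concentrated in nuclear speckles and NEAT1 forms the core of paraspeckles, and others act in the cytoplasm, such as NORAD, which binds Pumilio proteins. Most are not translated, so few of their fragments are shielded by ribosomes, although some hold short open reading frames. METTL16, the gene knocked down here, is an RNA methyltransferase that is also known to bind the triple helix at the end of MALAT1.

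3 conditions were sequenced, each as 1 input RNA library and 1 footprint library, which gives 6 libraries. The starved control carried a control shRNA and was kept in amino acid starvation medium. The starved knockdown carried an shRNA against METTL16 and was kept in the same medium, and the fed knockdown carried the METTL16 shRNA in complete medium. Treatment lasted 2 h, and cycloheximide, an elongation inhibitor that holds ribosomes in place on mRNA, was added to all cells for 5 min. The control shRNA in complete medium was not analysed here, so starvation could be compared in the knockdown only. The knockdown cells were stable shRNA lines, and whether they were 1 clone or a pool is not given in the sources used here. Input RNA was total RNA broken chemically, and footprints were the fragments of about 30 nt that RNase I left. For the small fragments of noncoding RNAs, protection by ribosomes and by other proteins or by RNA structure cannot be told apart.

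Total counts were 465303 to 775676 for input RNA and 518955 to 781831 for footprints, and the median lncRNA had a mean of 16 input reads. Levels are given in CPM, counts per 1000000 of the TMM-scaled library total, and 3 reads, the most that a count of 0 allows, correspond to 3.33 to 6.40 CPM. With 1 library per condition and assay there was no replicate spread to hold a difference against, and no test was possible. Each log2 ratio therefore compares 2 libraries, with a 95% counting interval that covers counting error only. A lncRNA is called higher or lower where the ratio is at least 2-fold and the interval excludes 0. No ratio is given where both libraries held at most 3 reads. In bulk RNA, a change of the RNA per cell and a change in the share of cells that carry it cannot be told apart. METTL16 input RNA stood at 77.3 CPM in the starved control, 19.2 in the knockdown under starvation and 26.1 in the fed knockdown. Of 12 A549 and epithelial markers 11 were past the minimum, and EPCAM, with 2, 0 and 7 input reads in the same order, was not. Of the 11, CDH1 alone was called in input RNA of the starved pair, at 1.47, with 47, 108 and 293 reads. The leukocyte and erythroid markers had no input read, and the 4 alveolar markers had 1 SFTPC read in the fed knockdown. The 4 fibroblast markers summed to 12.3, 8.54 and 1.38 CPM in the same order, with COL3A1 and PDGFRB at 0.

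50 of the 67 lncRNAs were matched to RefSeq by symbol. The deposited lengths of all 67 ran from 156 to 41346 bases with a median of 5162. 18 of the matched spans overlap a protein-coding gene, 8 hold a miRNA gene, and 4 hold a gene for another small RNA. The strand setting of the counting is not given in the sources used here, so reads of an overlapping or antisense partner cannot be told apart from those of the lncRNA. RefSeq promoter windows, 250 bases before to 50 after a transcript start, were found for 39 of the lncRNAs. The windows of MALAT1 (chr11:65498795-65499094, plus strand) and GARS1-DT (chr7:30577730-30578029, minus strand) are printed 5′ to 3′ because both RNAs were higher in the starved than in the fed knockdown. MALAT1 has a second RefSeq window at the start of its whole span (chr11:65497488-65497787), which holds no TATAAA and is not printed. The printed one lies further inside the span. Capitals mark TATAAA, the TATA box letters, and the assembly is GRCh38.p14.
MALAT1: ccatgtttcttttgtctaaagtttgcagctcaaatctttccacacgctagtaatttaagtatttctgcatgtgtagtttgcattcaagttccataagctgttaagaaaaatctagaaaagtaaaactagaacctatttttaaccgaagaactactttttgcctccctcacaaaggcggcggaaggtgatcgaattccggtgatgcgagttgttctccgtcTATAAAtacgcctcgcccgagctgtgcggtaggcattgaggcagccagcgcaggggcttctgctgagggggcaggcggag
GARS1-DT: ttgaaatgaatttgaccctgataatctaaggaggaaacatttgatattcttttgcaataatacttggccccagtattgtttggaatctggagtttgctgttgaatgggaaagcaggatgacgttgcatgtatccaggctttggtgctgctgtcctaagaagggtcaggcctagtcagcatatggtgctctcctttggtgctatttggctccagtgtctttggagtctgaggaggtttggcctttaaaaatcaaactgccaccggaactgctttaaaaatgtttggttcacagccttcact
Searched on both strands, TATAAA lay in 11.5% of all 35116 promoter windows and in 4 of the 53 windows of these lncRNAs (7.55%), namely those of MALAT1, MIR100HG, LINC00632 and AC016747.3 (now C2orf74-DT). TGATGNAA, the letters of the amino acid response element bound by ATF4, lay in 3.62% of all windows and in none of these lncRNAs, TGACTCA, the AP-1 letters, in 4.95% and in LINC00963 alone, and TGACGTCA, the cyclic AMP response element, in 1.85% and in none. A match describes letters in the window and says nothing of binding.

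3 of the lncRNAs called below, MIR22HG, FTX and MIR100HG, are on the list of miRNA hosts, and mature sequences from RefSeq are shown to place them, with the seed (bases 2 to 8) in capitals. The called NEAT1 and PVT1 also hold miRNA genes, whose sequences are not shown. MIR22HG holds the first, FTX the next 3 and MIR100HG the last 3, all on the minus strand.
hsa-miR-22-3p: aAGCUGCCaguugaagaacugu
hsa-miR-421: aUCAACAGacauuaauugggcgc
hsa-miR-374b-5p: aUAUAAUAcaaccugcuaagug
hsa-miR-545-3p: uCAGCAAAcauuuauugugugc
hsa-miR-100-5p: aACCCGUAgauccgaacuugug
hsa-let-7a-5p: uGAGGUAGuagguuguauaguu
hsa-miR-125b-5p: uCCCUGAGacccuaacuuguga
Each of these seeds differs from the others. The hairpin genes' own rows in the table held 0 to 2 reads over all libraries of an assay.

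1 entry dominated the reads. RNY5 (ENSG00000286171.1) is typed lncRNA in the table, with a length of 156 bases, although RNY5 is known as a Y RNA, a small noncoding RNA bound by the Ro protein, and RefSeq gives it 84 bases (chr7:148941488-148941571). It had 10519, 9774 and 13383 input reads in the control, the starved and the fed knockdown, and 41663, 52206 and 63511 footprint reads. That was 5.33%, 10.1% and 8.92% of all footprint counts, the highest share in the starved knockdown and the lowest in the control. Without RNY5 the other lncRNAs made up 0.645%, 1.07% and 0.684% of input counts and 0.205%, 0.359% and 0.357% of footprint counts.

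Per kilobase of deposited length, the median lncRNA stood at 6.15 input CPM against 9.21 for the median protein-coding gene past the minimum, and 22 of the 67 were at or above that coding median. After RNY5, MALAT1 was the highest at a mean of 473 CPM per kilobase, a level exceeded by 40 protein-coding genes. POLG-DT followed at 301 and RP4-561L24.3 at 136, both short genes of 1109 and 1766 bases. NEAT1 stood at 23.4 and NORAD at 49.3 CPM per kilobase.

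**Figure D1:**
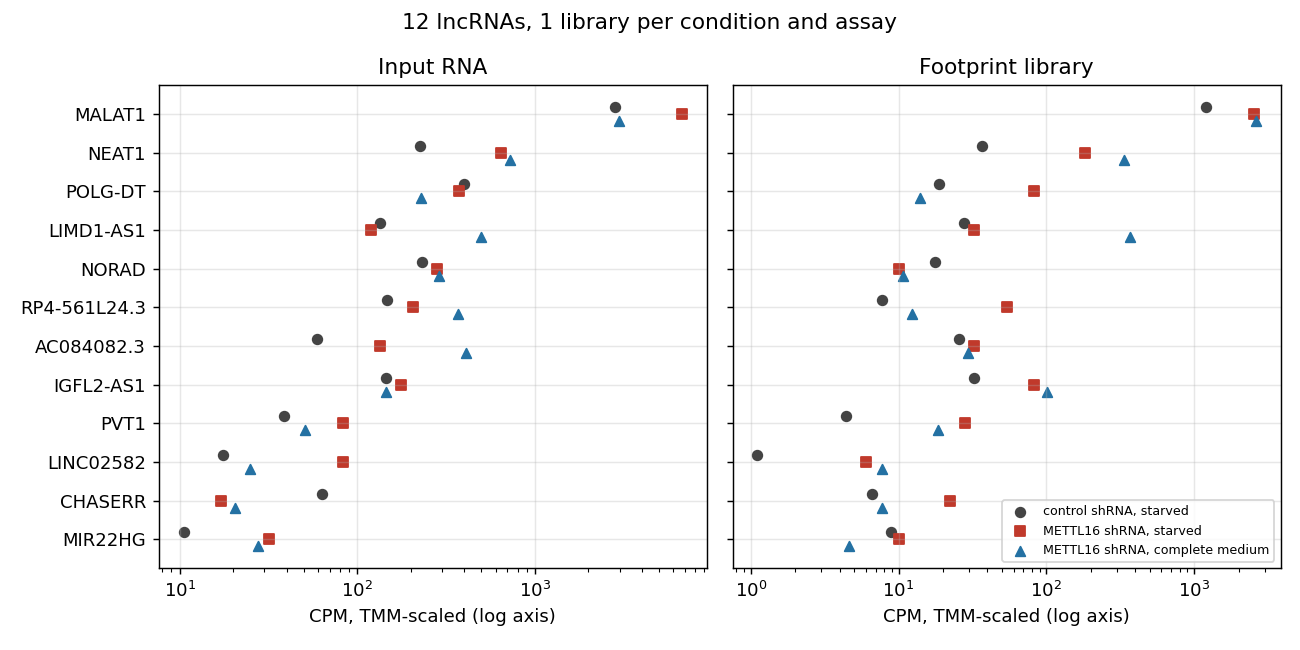
Level of 12 lncRNAs in CPM (log axes) in the input RNA libraries (left) and the footprint libraries (right), with 1 point per library and no error bars because there were no replicates. MALAT1 input RNA is highest in the starved knockdown at 6707 CPM, and LIMD1-AS1 footprints are highest in the fed knockdown at 370 CPM.

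The first comparison set the starved knockdown against the starved control and asks which lncRNAs differed in amount where METTL16 was lowered. Of 66 lncRNAs compared, 11 were called higher, beside 6.21% of all genes past the minimum, and 4 lower, beside 7.19%. NEAT1, MALAT1, FTX and PVT1 were all among the higher ones. The median of the 66 was -0.01 on the log2 scale, as it was for all genes.

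MALAT1 (ENSG00000251562.8, chr11:65497738-65506516) had 2837 CPM of input RNA in the starved control, 6707 in the knockdown under starvation and 2980 in the fed knockdown, from 1615, 3143 and 2167 reads. The starved knockdown stood apart, and the other libraries were close to each other. The log2 ratio of knockdown to control was 1.24 (1.15 to 1.33). NEAT1 (ENSG00000245532.9, chr11:65422798-65445540) had 227, 642 and 727 CPM in the same order, so that both knockdown libraries lay above the control. Its ratio was 1.5 (1.20 to 1.81), from 129 and 301 reads. The snRNA genes, whose RNAs are nuclear as well, took 1.71%, 4.05% and 2.57% of input counts in the same order, also highest in the starved knockdown. Their part in the MALAT1 and NEAT1 results was not tested.

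PVT1, a lncRNA often amplified in cancer, had 38.6 CPM in the starved control, 83.2 in the knockdown under starvation and 50.9 in the fed knockdown, with a log2 ratio of 1.09 (0.32 to 1.93). FTX, a transcript of the X-inactivation centre, rested on 7, 18 and 28 reads, with a ratio of 1.58 (0.32 to 3.15). These 4 were the measured members of a list of 21 nuclear and architectural lncRNAs, and all 4 were called higher, with a median of 1.37 against -0.01 for all genes. The list was chosen with such results known, so its count is no independent evidence. Of 14 cytoplasmic lncRNAs, 3 were measured and none was called, namely NORAD at 0.28 (-0.08 to 0.64), EPB41L4A-AS1 at -0.52 (-1.91 to 0.72) and DANCR at -0.84 (-2.30 to 0.38). NORAD was level across the 3 conditions, at 230, 280 and 289 CPM.

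The stress and p53 list had 3 of 11 measured, MIR22HG, NEAT1 and PVT1, all called higher with a median of 1.5. NEAT1 and PVT1 were already counted in the nuclear list. The lists of this paragraph were also chosen with such results known, so their counts are no independent evidence. MIR22HG, the host transcript of miR-22, had 6, 15 and 20 input reads in the order control, starved knockdown and fed knockdown, and a ratio of 1.53 (0.16 to 3.26). Among 5 measured miRNA hosts, MIR22HG and FTX were called higher, while MIR23AHG stood at 0.63 (-0.45 to 1.76), MIR100HG at 0.59 (-0.42 to 1.65) and MIR1915HG at -0.05 (-1.35 to 1.18). None of the 10 lncRNAs of inflammation and none of the 6 Pol III and ribozyme RNAs listed was past the minimum as a lncRNA. Of 18 lncRNAs reported to encode small proteins 3 were measured, and MIR22HG alone was called.

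The other lncRNAs called higher carried few reads, apart from AC084082.3. LINC02582 had 10 reads in the starved control, 39 in the knockdown under starvation and 18 in the fed knockdown, with a ratio of 2.19 (1.22 to 3.41). RP11-4O1.2 (now LINC02977) had 4, 18 and 23 reads and a ratio of 2.32 (0.85 to 4.47). AC010761.8, with 4, 14 and 15 reads, stood at 1.97 (0.42 to 4.15). For these 2 clone-named genes both knockdown libraries were above the control, whereas LINC02582 was highest in the starved knockdown. AC084082.3, with 34, 63 and 298 reads, was called at 1.16 (0.55 to 1.82). CASC19, with 13, 25 and 38 reads, was called at 1.20 (0.20 to 2.31). COX10-AS1 (now COX10-DT), which starts beside the gene for a heme synthesis enzyme, stood at 1.24 (0.05 to 2.62) and lost its call when libraries were scaled by total counts, at 1.17 (-0.02 to 2.55). With 9, 18 and 8 reads, it passed the count minimum through the starved knockdown library alone.

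The lowest ratio belonged to CHASERR (ENSG00000272888.7, chr15:92882843-92898747), a lncRNA known to restrain its neighbour CHD2, which encodes a chromatin remodeller. It had 36 input reads in the starved control, 8 in the knockdown under starvation and 15 in the fed knockdown, or 63.2, 17.1 and 20.6 CPM. Both knockdown libraries lay below the control, and the log2 ratio of the starved pair was -1.82 (-3.21 to -0.76). CHD2, looked up after the CHASERR values were seen, had 18, 9 and 32 input reads and a ratio of -0.68 (-2.06 to 0.51). RP1-239B22.6 was also called lower, at -1.55 (-3.42 to -0.18) from 19 and 5 reads, with 10 in the fed knockdown. LINC00941 stood at -1.38 (-3.06 to -0.09) from 20 and 6 reads, with 6 in the fed knockdown. The control library, where both were high, carried these 2 lncRNAs past the count minimum. NR2F2-AS1, antisense to a nuclear receptor gene, stood at -1.30 (-2.84 to -0.09), while NR2F2 itself was not called, at 0.55. LINC01287, the next by the interval end nearest 0, was not called, at -0.86 (-2.0 to 0.14).

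**Figure D2:**
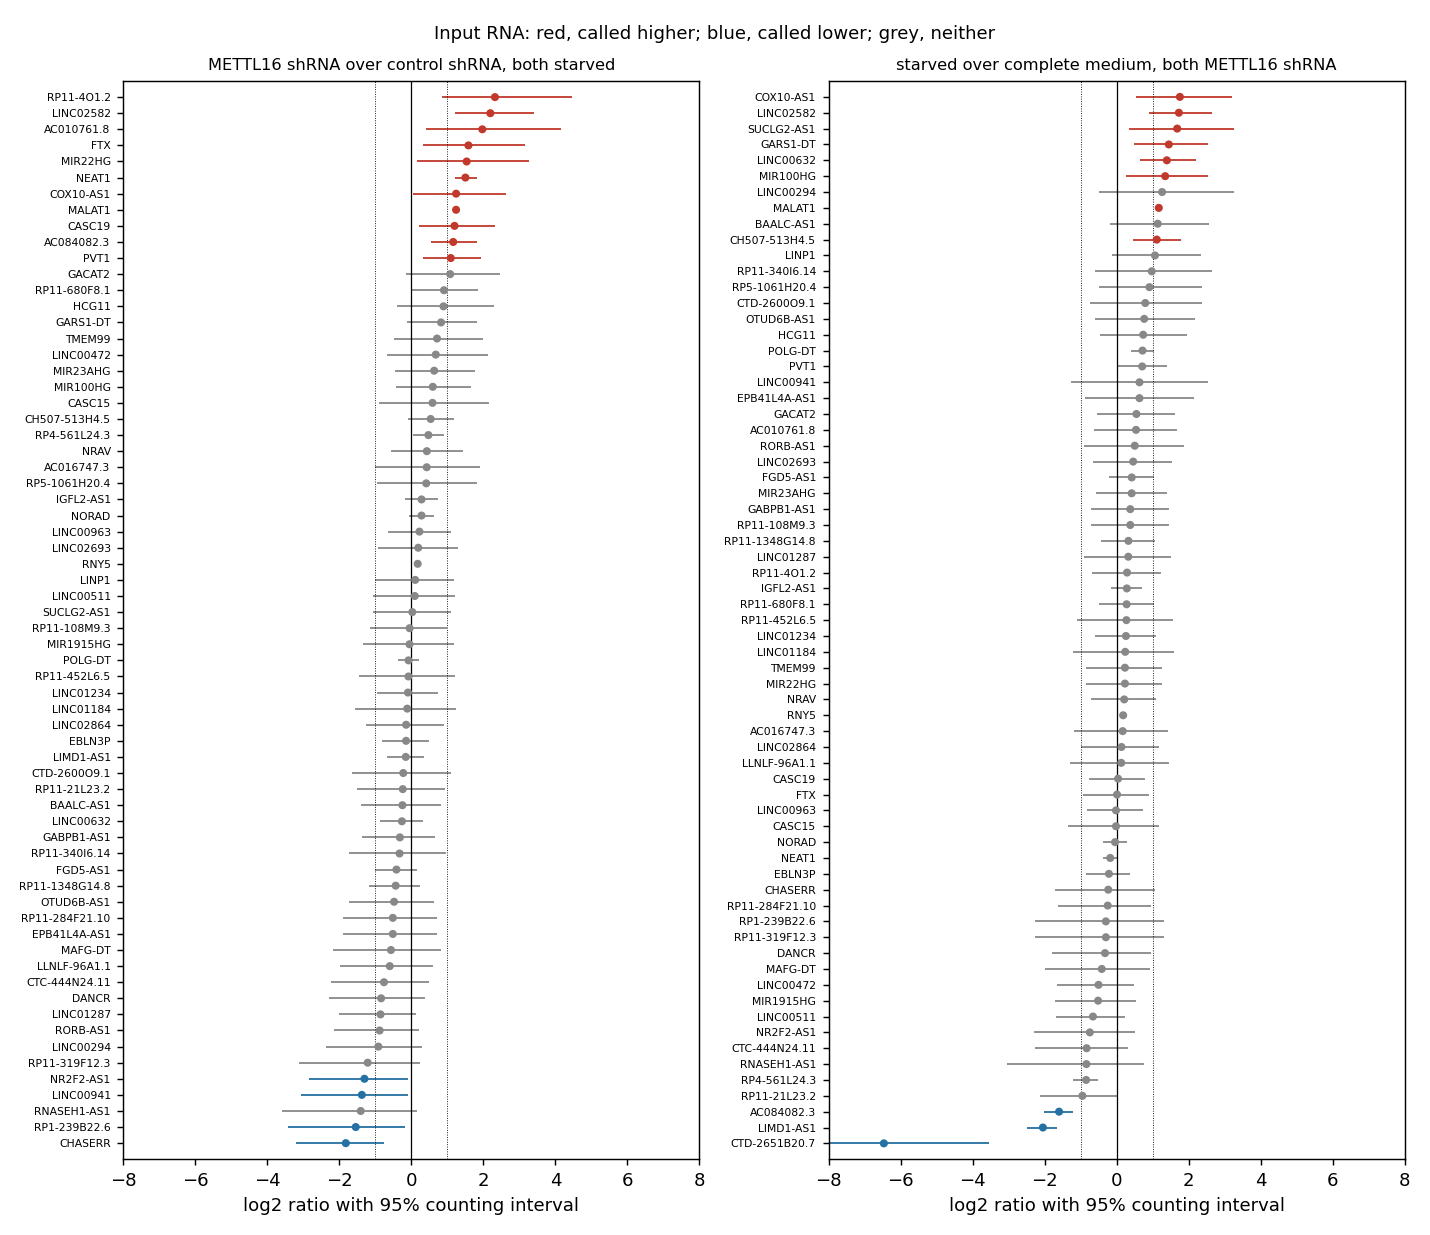
Log2 ratio of input RNA for each lncRNA compared, as a point with its 95% counting interval, for the starved knockdown over the starved control (left, 66 lncRNAs) and the starved over the fed knockdown (right, 67 lncRNAs). Dotted lines mark the 2-fold limits, red and blue mark calls, and an interval that reaches the edge goes beyond it. MALAT1 has the narrowest interval among the called lncRNAs, 1.15 to 1.33 on the left.

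The second comparison set the starved against the fed knockdown and asks what 2 h without amino acids changed. It shares the starved knockdown libraries with the first, so a value peculiar to those libraries enters both. Of 67 lncRNAs, 8 were called higher, beside 4.36% of all genes, and 3 lower, beside 6.91%. The median lncRNA stood at 0.27 against -0.05 for all genes, and 45 of the 67 lay above 0. MALAT1 was called higher and NEAT1 was not.

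MALAT1, at 6707 CPM starved and 2980 fed, had a log2 ratio of 1.17 (1.09 to 1.25). NEAT1, at 642 and 727 CPM, had a ratio of -0.18 (-0.39 to 0.03). PVT1 stood at 0.71 (0.02 to 1.40) and FTX at 0.01 (-0.94 to 0.90), so 1 of the 4 nuclear lncRNAs was called here, with a median of 0.36. The cytoplasmic NORAD, DANCR and EPB41L4A-AS1 had a median of -0.04 and no call. Among the miRNA hosts, MIR100HG was the one called, at 1.35 (0.27 to 2.54) from 20 reads starved and 12 fed.

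2 of the lncRNAs called higher start beside genes for metabolic enzymes. COX10-AS1 had 9 reads in the starved control, 18 in the knockdown under starvation and 8 in the fed knockdown, with a ratio of 1.76 (0.53 to 3.21). The starved knockdown library alone carried it past the count minimum. SUCLG2-AS1 (now SUCLG2-DT), beside the gene for a succinyl-CoA ligase subunit, had 18, 15 and 7 reads and a ratio of 1.68 (0.35 to 3.27). For COX10-AS1 the starved knockdown stood apart, whereas for SUCLG2-AS1 both starved libraries were above the fed one. GARS1-DT, whose promoter is printed above, is divergent from the gene for glycyl-tRNA synthetase. It had 17, 25 and 14 reads and a ratio of 1.45 (0.47 to 2.53), while GARS1 stood at 0.23.

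LINC00632, known as the host of the circular RNA CDR1as, had 60 and 41 reads in the starved control and knockdown and 24 in the fed knockdown, with a ratio of 1.39 (0.65 to 2.2). Both starved libraries, at 105 and 87.5 CPM, lay above the fed one at 33.0 CPM. LINC02582 was called at 1.73 (0.91 to 2.64), and CH507-513H4.5 at 1.11 (0.46 to 1.79).

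Those called lower were high in the fed knockdown. LIMD1-AS1 (ENSG00000230530.2, chr3:45678165-45688882) had 133 CPM in the starved control, 120 in the knockdown under starvation and 498 in the fed knockdown, from 76, 56 and 362 reads. Its starved to fed ratio was -2.05 (-2.49 to -1.65), while LIMD1, which it overlaps, stood at -0.26 and was not called. AC084082.3 had 59.7, 134 and 410 CPM and a ratio of -1.60 (-2.02 to -1.21), so its libraries were ordered from the starved control through the starved to the fed knockdown. CTD-2651B20.7 had no read in either starved library and 68 in the fed knockdown. It was 14.6-fold lower with the starved knockdown set at the floor of 3 reads, and its log2 interval ended at -3.53. It passed the count minimum through the fed library alone. RP4-561L24.3, at 148, 205 and 370 CPM, was lower without reaching 2-fold, at -0.85 (-1.20 to -0.51), and RP11-21L23.2 was not called at -0.95 (-2.12 to 0.02).

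19 of the lncRNAs are named for a partner gene, and for 13 of these the partner was past the minimum. In the knockdown against the control 2 of the 13 lncRNAs and 0 of the partners were called, with medians of -0.11 and 0.26, and 5 pairs had the same sign. Over all genes 6.21% were called higher and 7.19% lower. In the starved against the fed knockdown 4 lncRNAs and 0 partners were called, with medians of 0.38 and 0.10, and 9 pairs had the same sign, beside 4.36% and 6.91% of all genes called higher and lower. These counts came from single libraries by the 2-fold rule, with no test behind them. The median interval of a lncRNA spanned 2.32 and 2.16 on the log2 scale in the 2 comparisons, so at this depth a 2-fold change of most of them was not detectable.

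Proteins that act with these RNAs were set beside them from lists chosen for this report. Of 7 paraspeckle proteins, which assemble on NEAT1, all were measured. In input RNA, TARDBP alone was called higher in the knockdown, at 1.08, and RBM14 alone lower in starvation, at -1.20. Footprints relative to RNA, the measure taken up below, gave other calls. In it TARDBP was lower in the knockdown, at -1.56. In starvation RBM14 was higher, at 1.04, and TARDBP, SFPQ and NONO were lower, at -1.53, -1.20 and -1.10. Of 10 factors of nuclear RNA decay 7 were measured. In input RNA EXOSC10 was called lower in the knockdown, at -1.01, and PABPN1 lower in starvation, at -1.34. Relative to RNA 1 was called higher and 2 lower in the knockdown, and 2 higher and 2 lower in starvation. Of 10 factors of nonsense-mediated decay 7 were measured and none was called in input RNA in either comparison. Relative to RNA 1 was called higher and 1 lower in the knockdown, and 0 higher and 1 lower in starvation. Of all genes, 6.21% were called higher and 7.19% lower in input RNA in the knockdown, and 4.36% and 6.91% in starvation. Relative to RNA these shares were 6.87% and 6.59% in the knockdown, and 8.68% and 7.6% in starvation.

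The footprint to RNA ratio is the footprint CPM over the input CPM of the same condition, and for an mRNA it follows how densely ribosomes occupy it. Over the 3 conditions pooled, the median lncRNA had a log2 ratio of -2.41 against -0.43 for protein-coding genes, and 4.09% of coding genes lay below that lncRNA median. In the order control, starved knockdown and fed knockdown the lncRNA medians were -3.02, -2.01 and -2.38, and the coding medians were -0.38, -0.42 and -0.49. 4, 6 and 7 lncRNAs were at or above the coding median of their condition. Protein-coding genes with as few input reads, a mean of 10 to under 20, had a pooled median of -0.46, and the lncRNAs in that range had -2.44. No footprint read was found for 17, 15 and 12 of the 67 lncRNAs, or 25.4%, 22.4% and 17.9%, against 0.728%, 1.17% and 0.793% of coding genes. 8 lncRNAs had none in any library, and 20 had at most 3 in each. Genes with 0 footprint reads enter the medians through the pseudocount of 0.5, whose weight depends on library depth. Without them the lncRNA medians were -2.31, -1.82 and -2.07, and the coding medians were -0.37, -0.41 and -0.48.

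2 of the 67, RP11-108M9.3 and RNY5, had a pooled ratio at or above that of the median protein-coding gene. RP11-108M9.3 (ENSG00000228549.5) had 19, 15 and 18 input reads but 131, 150 and 77 footprint reads, a pooled log2 ratio of 2.56 (2.15 to 3.02). It was above the coding median in every condition, at 2.09, 3.20 and 2.23. It had no RefSeq match, so an overlap with a coding or small RNA gene was not checked. RNY5 had a pooled ratio of 2.01 (2.00 to 2.03).

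Ranked by the lower end of the interval, the next were MALAT1, LIMD1-AS1, IGFL2-AS1 and AC016747.3. By the ratio itself TMEM99, LINC01184 and GACAT2, with wider intervals, lay between AC016747.3 and MALAT1. AC016747.3 stood at -0.79 (-1.64 to 0.03), and MALAT1 at -0.99 (-1.05 to -0.93), above 29.6% of coding genes although it is a nuclear RNA. LIMD1-AS1 stood at -1.02 (-1.24 to -0.81) and IGFL2-AS1 at -1.21 (-1.52 to -0.91). LIMD1-AS1 and IGFL2-AS1 overlap the protein-coding genes they are named for, and the MALAT1 span holds the small tRNA-like mascRNA.

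At the other end CH507-513H4.5 had 41, 49 and 35 input reads and 0 footprint reads, which allows up to 3.33, 6.06 and 4.63 CPM of footprints. NR2F2-AS1 and RORB-AS1 also had 0 footprint reads in all libraries. NORAD, the best counted of the low ones, had 131, 131 and 210 input reads against 16, 5 and 7 footprint reads, a pooled ratio of -4.26 (-4.89 to -3.74). NEAT1 stood at -1.70 (-1.88 to -1.52), above 11.7% of coding genes.

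**Figure D3:**
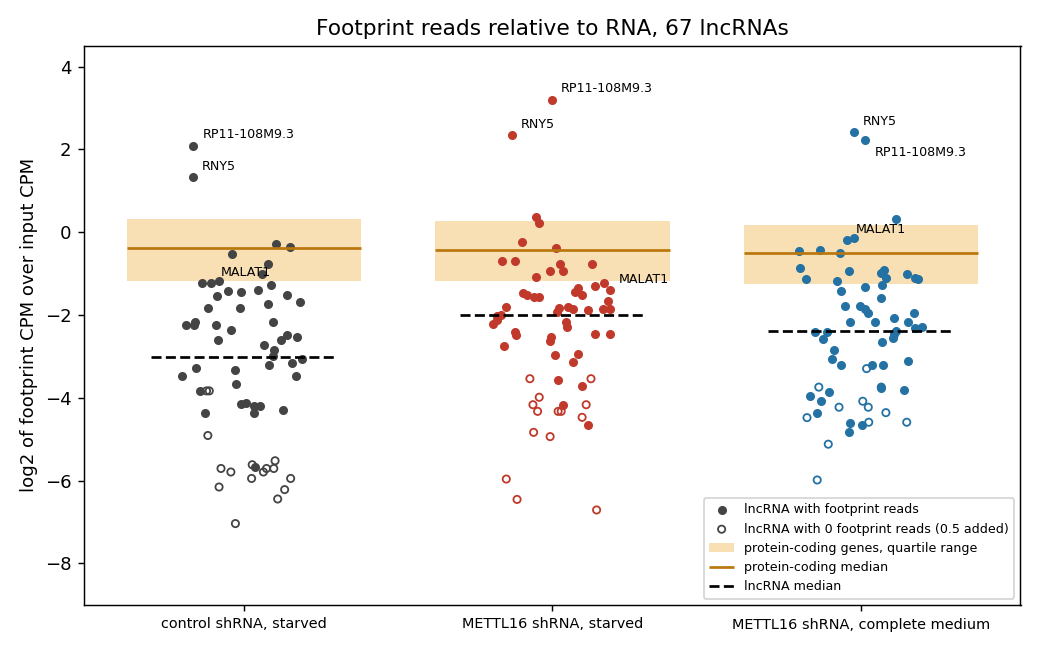
Log2 of footprint CPM over input CPM in each condition, with 1 point per lncRNA (CTD-2651B20.7, with no read in the starved libraries, is drawn in the fed knockdown only, and open points have 0 footprint reads, to which 0.5 was added) and points spread sideways for legibility. Shaded boxes are the quartile range of 7688, 7665 and 7695 protein-coding genes in the 3 conditions, with their median as a line. The dashed lncRNA medians of -3.02, -2.01 and -2.38, open points included, lie below the boxes, and RNY5 and RP11-108M9.3 lie above them.

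In the footprint libraries, 42 lncRNAs could be compared between the starved knockdown and the starved control, and 25 could not because both libraries held at most 3 reads. 15 were called higher, beside 5.15% of all genes, and none lower, beside 5.28%. The median of the 42 was 0.73 against -0.05 for all genes. Of the 42, 27 had over 3 reads in both libraries, with 10 called higher and a median of 1.04. The other 15 passed through 1 library, the control for 9 and the knockdown for 6. Scaled by total counts, 8 were called higher and none lower, beside 2.45% and 10.5% of all genes. Leaving out RNY5 and the matched lncRNAs that overlap a protein-coding gene or hold a non-miRNA small RNA gene also left 8, of 27. Other lncRNAs without a RefSeq match, such as RP4-561L24.3 and RP11-108M9.3, were not checked for overlap and stayed in. The share of snRNA in footprint counts was 5.98% in the starved control, 14.1% in the knockdown under starvation and 10.6% in the fed knockdown, and that of protein-coding genes was 79.0%, 64.4% and 66.0%. The part of this shift in the footprint results was not tested.

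MALAT1 footprints stood at 1205 CPM in the starved control, 2549 in the knockdown under starvation and 2606 in the fed knockdown. Both knockdown libraries lay above the control, and the starved pair had a log2 ratio of 1.08 (0.96 to 1.20), which fell short of 2-fold at 0.81 with total counts. NEAT1 footprints stood at 36.6, 182 and 338 CPM, from 33, 90 and 219 reads. The ratio of the starved pair was 2.30 (1.72 to 2.93), and it was 2.03 with total counts. PVT1, with 4 and 14 footprint reads, stood at 2.55 (1.00 to 4.73).

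POLG-DT (ENSG00000261441.1, chr15:89334487-89336161), divergent from the gene for the mitochondrial DNA polymerase, was level in input RNA at 397 CPM in the starved control and 376 in the knockdown under starvation, with 228 in the fed knockdown. Its footprints stood at 18.9, 82.9 and 13.9 CPM, from 17, 41 and 9 reads, so the starved knockdown alone was high. The footprint ratio was 2.11 (1.29 to 3.04), and the change of footprints relative to RNA was 2.19 (1.33 to 3.04). Its RefSeq span holds an arginine tRNA gene of 73 bases (chr15:89335073-89335145), and how many of the reads belong to that tRNA was not tested. RP4-561L24.3 had 7, 27 and 8 footprint reads, again with the starved knockdown alone high, and a ratio of 2.74 (1.58 to 4.26). GACAT2, inside the span of a protein-coding gene, had 1, 20 and 4 footprint reads, with a ratio of 4.64 (2.54 to 10.56).

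CHASERR went opposite ways in the 2 assays. Its footprints stood at 6.66 CPM in the starved control, 22.2 in the knockdown under starvation and 7.71 in the fed knockdown, from 6, 11 and 5 reads. The footprint ratio was 1.69 (0.18 to 3.46), or 1.41 (-0.09 to 3.19) with total counts, which ended the call. Set against its input RNA, which was lower, footprints changed by 3.51 (1.75 to 5.27).

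Among the remaining calls, RNY5 stood at 1.19 (1.17 to 1.21) and RP11-108M9.3 at 1.06 (0.71 to 1.41), and total counts put both under 2-fold, at 0.92 and 0.79. IGFL2-AS1 stood at 1.36 (0.64 to 2.10), from 29 and 41 reads. RP11-452L6.5, with 1 and 6 reads, had a ratio of 2.98 (0.41 to 8.97). NRAV, a lncRNA known to dampen antiviral responses, had 3 and 8 reads and TMEM99 (now KRT10-AS1) had 7 and 12, with ratios of 2.14 (0.22 to 4.83) and 1.60 (0.18 to 3.23) that lost their calls with total counts. LINP1, a scaffold of DNA end joining, went from 0 to 5 reads, 3.03-fold higher with the 0 set at the floor of 3 reads. RP11-21L23.2 went from 0 to 4, 2.43-fold higher in the same way, a call that total counts ended. Those folds leave out the counting error of the 5 and 4 reads, and the log2 intervals began at 0.74 and 0.26.

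**Figure D4:**
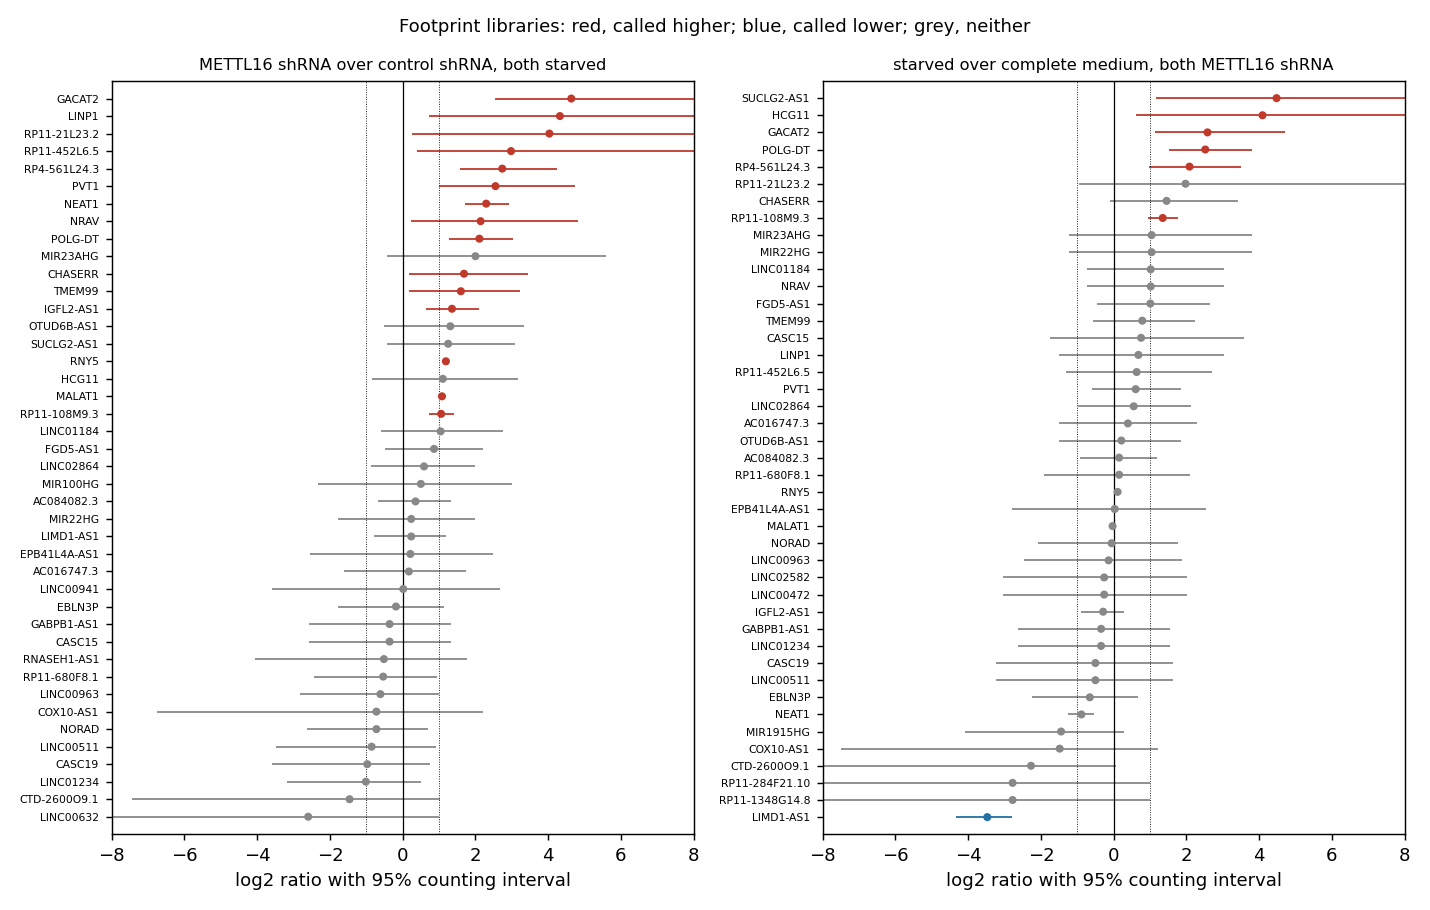
Log2 ratio of footprint libraries for each lncRNA compared, with its 95% counting interval, for the starved knockdown over the starved control (left, 42 lncRNAs) and the starved over the fed knockdown (right, 43 lncRNAs). Red and blue mark calls, and intervals that reach the edge go beyond it. Genes with 0 reads on a side, such as LINP1 and SUCLG2-AS1, are drawn with 0.5 reads added. On the left 15 are red and none is blue, and on the right LIMD1-AS1 is the one in blue.

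Between the starved and the fed knockdown, 43 lncRNAs could be compared in footprints. 6 were called higher, beside 6.3% of all genes, and 1 lower, beside 7.14%, with a median of 0.15 against 0.00 for all genes. POLG-DT stood at 2.52 (1.51 to 3.80), GACAT2 at 2.58 (1.13 to 4.72), RP4-561L24.3 at 2.08 (0.97 to 3.49) and RP11-108M9.3 at 1.35 (0.95 to 1.77). SUCLG2-AS1 had 8 footprint reads starved and 0 fed, 3.49-fold higher with the 0 set at 3 reads, and its log2 interval began at 1.16. HCG11, a lncRNA of the HLA complex region, had 6 and 0, 2.62-fold higher in the same way, and its interval began at 0.63. LIMD1-AS1 footprints stood at 27.8 CPM in the starved control, 32.3 in the knockdown under starvation and 370 in the fed knockdown, with a ratio of -3.48 (-4.35 to -2.79). NEAT1 was at -0.89 (-1.26 to -0.53) and MALAT1 at -0.03 (-0.14 to 0.07).

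Footprints relative to RNA were called different between the starved knockdown and the starved control for 9 of 42 lncRNAs, 8 higher, beside 6.87% of all genes, and 1 lower, beside 6.59%. 18 were at least 2-fold higher and 7 at least 2-fold lower when intervals are disregarded, beside 987 and 1081 of 7668 genes in all. Such counts grow with counting error, and the lncRNAs carried fewer reads. Their median was a mean of 16 input reads, against 29.3 for protein-coding genes, so these counts are not like for like. The median ratio of the 42 was 0.77 against -0.01 for all genes. Besides CHASERR and POLG-DT the higher ones were GACAT2 at 3.56 (0.90 to 6.21), RP11-452L6.5 at 3.06 (0.25 to 5.87) and RP4-561L24.3 at 2.27 (1.03 to 3.50). RP11-108M9.3 at 1.11 (0.09 to 2.13), IGFL2-AS1 at 1.08 (0.27 to 1.89) and RNY5 at 1.01 (0.97 to 1.06) lay near the 2-fold limit, and total counts took all 3 below it. That left 5 higher and 1 lower, beside 4.64% and 10.5% of all genes under total counts. CASC19 was the one called lower, at -2.17 (-4.13 to -0.21), from 12 footprint reads in the control and 3 in the knockdown. GACAT2, with 1 and 20 footprint reads, and RP11-452L6.5, with 1 and 6, were compared through the knockdown library alone, and CASC19 through the control. Among the 27 lncRNAs with over 3 footprint reads in both libraries, 6 were called higher and 0 lower, with a median of 0.74.

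MALAT1 and NEAT1 were not called in that measure, at -0.16 (-0.31 to -0.01) and 0.80 (0.15 to 1.44), MALAT1 having ratios of 1.24 in RNA and 1.08 in footprints. With the fed knockdown's input in place of the starved knockdown's, MALAT1 stood at 1.01 (0.86 to 1.16), past the call, and 14 lncRNAs were called higher, beside 6.53% of all genes, and 3 lower, beside 7.95%. NORAD at -1.0 (-2.44 to 0.43), AC084082.3 at -0.81 (-1.89 to 0.28) and RP11-680F8.1 (now LCIIAR) at -1.44 (-3.09 to 0.21) were not called and are named because their upper interval ends were among the lowest. LINC00632 and COX10-AS1 had lower ratios, of -2.33 and -1.96, with wider intervals.

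Between the starved and the fed knockdown, footprints relative to RNA were called higher for 5 of 43 lncRNAs, beside 8.68% of all genes, and lower for 4, beside 7.6%, with a median of -0.01 (0.07 with genes at 0 set at their bound) against 0.09. MALAT1 was lower, at -1.20 (-1.33 to -1.07), its RNA being higher in starvation and its footprints level, and its ratio went from -0.19 fed to -1.40 starved. NEAT1 stood at -0.71 (-1.12 to -0.30) without reaching the 2-fold limit.

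COX10-AS1 at -3.24 (-6.10 to -0.38), CTD-2600O9.1 at -3.07 (-5.89 to -0.25) and LIMD1-AS1 at -1.43 (-2.25 to -0.60) were the others called lower, the first 2 from 1 footprint read in the starved knockdown. The higher ones were RP4-561L24.3 at 2.93 (1.77 to 4.09), RP11-21L23.2 at 2.93 (0.09 to 5.76) and GACAT2 at 2.03 (0.27 to 3.79), with POLG-DT at 1.80 (0.74 to 2.86) and AC084082.3 at 1.75 (0.72 to 2.77). RP11-21L23.2 had 4 footprint reads starved and 1 fed, so it was compared through the starved knockdown library alone. COX10-AS1 and CTD-2600O9.1 were compared through the fed knockdown library alone. For AC084082.3 the input RNA differed, at 134 CPM starved and 410 fed, while its footprints stood at 32.3 and 29.3 CPM. Among the 27 lncRNAs with over 3 footprint reads in both knockdown libraries, 4 were called higher and 2 lower.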

How the data were processed

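The values deposited by the authors are raw counts, whole numbers of reads per gene that were not normalized, for 60648 genes with their lengths. Per the submitters' processing notes, the build was GRCh38 and the tools were featureCounts 2.0.1, STAR 2.7.5c, Bowtie2 2.2.5 and cutadapt 2.8, with no parameters given. A record broken over 3 lines was left out, and a deposited table of translation efficiency was not used here.

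The titles gave each sample's shRNA, medium and assay, which define the groups. Counts were scaled with TMM factors over the 3 libraries of an assay (edgeR 4.0.16, R 4.3.3), and log2 ratios used a pseudocount of 0.5. For a ratio of 2 counts the 95% interval is the exact Clopper-Pearson interval of a conditional binomial, and for footprints relative to RNA it uses Poisson variances of the 4 counts on the log scale (delta method). PCR copies carry no molecular identifier, so these intervals describe counting error and nothing else. The code was tested on simulated counts. All genes with a mean of at least 10 input counts were the background. DESeq2 1.42.0 gave alternative size factors only. Computations ran in Python 3.11.15 with pandas 2.3.3, scipy 1.17.1 and numpy 2.4.6, and figures used matplotlib 3.10.9.

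The lncRNAs and the lists were chosen with earlier results of these data known. Named were MALAT1 and NEAT1, the 8 highest per length, in input RNA and in footprints relative to RNA the 5 highest and 5 lowest of each comparison by the interval end nearest 0, the 6 highest and 4 lowest by pooled footprint ratio (by the interval end nearest the median coding gene), and up to 2 highest and 2 lowest of each list. The other called lncRNAs were named after their values were seen. Coordinates and sequences come from RefSeq (GRCh38.p14), matched by current symbol.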

Additional observations from a re-analysis of the deposited data

How the results depend on the processing

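No paired analysis was possible because each condition gave 1 library per assay, and no replicate could be left out. With a minimum mean of 30 input counts 15 lncRNAs remained: 4 were called higher and 0 lower in RNA in the knockdown, and 3 higher in starvation. In footprints that minimum gave 7 and 2 higher, and relative to RNA 4 higher and 0 lower in the knockdown and 3 and 2 in starvation. Then 1, 1 and 3 lncRNAs reached the coding median in the control, starved and fed knockdown. With a minimum of 1 count, calls (higher and lower) were 35 and 11 of 328 in RNA in the knockdown and 42 and 19 of 429 in starvation. They were 26 and 1 of 137, then 14 and 4 of 126, in footprints, and 13 and 2 of 104 relative to RNA in the knockdown, with 11 of 98 higher in starvation. These minimums change which genes enter. The shares of all genes called under them are not given here, so these counts have no background beside them. Total counts moved the all-gene median of footprints by -0.27 and of footprints relative to RNA by -0.20 in the knockdown. They gave 8 and 5 lncRNAs called higher, beside 2.45% and 4.64% of all genes. They moved the median of RNA in starvation by 0.10, and protein-coding counts as the scale by 0.11. The swapped input gave 14 higher and 3 lower, beside 6.53% and 7.95% of all genes, with the cause not tested. 2 alternatives were added after seeing the data. In the first, RNY5 and the matched lncRNAs that overlap a coding gene or hold a non-miRNA small RNA gene were left out. Other lncRNAs without a RefSeq match stayed in unchecked. Footprints then gave 8 higher in the knockdown and 0 lower in starvation. Relative to RNA there were 4 higher in the knockdown, and 3 higher and 2 lower in starvation. Leaving out RNY5 moved no count of calls by over 1.5 times, and no called value changed sign under any of these settings.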
